A study of Polypedilum vanderplanki with 84 samples.

Results

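The comparison described here set Pv11 cells 72 h after rehydration (Rehydration 72 h, 3 replicates) against the same cell line 24 h after rehydration (Rehydration 24 h, 3 replicates), which are 6 of the 84 RNA sequencing libraries of the series. Genes were taken as the sum of their transcripts as TPM, a level of transcripts corrected for their length and scaled to the same total in each library, and 9450 of 18248 genes had a mean above 1 TPM over all libraries and were tested. Pv11 is a cell line of the anhydrobiotic midge *Polypedilum vanderplanki*. Cells of both groups had been preconditioned in 600 mM trehalose for 48 h, dried and returned to culture medium with fetal bovine serum, with no other treatment named. The time course that holds them has 30 libraries in 10 groups, preconditioning (PreCondTre) at 0, 12, 24, 36 and 48 h and Rehydration at 0, 3, 12, 24 and 72 h, and came from an earlier study whose reads the authors used again. It includes no undried culture of the same age, so that time after rehydration and time in culture cannot be told apart, and the libraries are bulk RNA, in which fewer cells of a type and less RNA per cell cannot be told apart. The other 54 libraries belong to 18 groups of a stress experiment on undried Pv11 cells.

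Larvae of *P. vanderplanki* survive almost complete loss of water, and Pv11 cells do so after exposure to high trehalose. In this species, many genes used in anhydrobiosis lie in clusters called Anhydrobiosis Related Islands (ARIds). The largest, ARId1 on Chromosome 4, holds tandem copies of genes for LEA (late embryogenesis abundant) proteins, hydrophilic proteins known from desiccation tolerant seeds and animals, and for LIL (Lea-island-located) proteins. The study divided ARId1 into 4 Blocks of consecutive genes by their expression, partly in these same libraries, so the Blocks are not independent of the values below. Gene IDs other than those in the study's own lists are not paired with a product in the sources used here, so that no pathway and no marker of another cell type could be examined, and sequences of the genes were not used here.

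At 72 h, against 24 h, 190 genes were higher and 356 were lower at an adjusted p under 0.05 and a change above 2-fold in limma (546 genes, 5.78% of those tested, with 2.01% up and 3.77% down). The largest fall was that of the long noncoding RNA nc472, and the genes that rose included 11 of the 39 ARId1 genes tested, all of them in Block 1. Both groups were tight. The 3 libraries of a group correlated at r = 0.988 to 0.991 across genes, and libraries of different groups at r = 0.959 to 0.973, where genes are not independent replicates. The median SD of log2(TPM + 1) within a group was 0.12 at 72 h and 0.11 at 24 h, against a median absolute change of 0.29 between the groups. The 100 most abundant genes held 34.0% to 35.0% of the TPM in the 72 h libraries and 31.7% to 32.5% in the 24 h libraries.

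Smaller changes were far more common than 2-fold ones. In limma, an adjusted p under 0.05 at any fold was reached by 3326 genes (35.2%), of which 835 were higher (8.84% of all genes) and 2491 lower (26.4%) at 72 h, and in 5463 genes (57.8%) the ranges of the 3 libraries at 72 h and the 3 at 24 h did not overlap. The median change over all genes was -0.18 on the log2 scale. The balance of the calls depended on this shift. When each library was divided by the median of its ratios to a common reference (median ratio scaling), the median became -0.01 and the counts became 257 genes up and 186 down, so that 58.0% of the calls were rises instead of 34.8%. The scaled counts held 189 of the 190 genes called up on the deposited values and 186 of the 356 called down. Named changes between 72 h and 24 h whose call or direction scaling alters are given below with their scaled value.

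**Figure D1:**
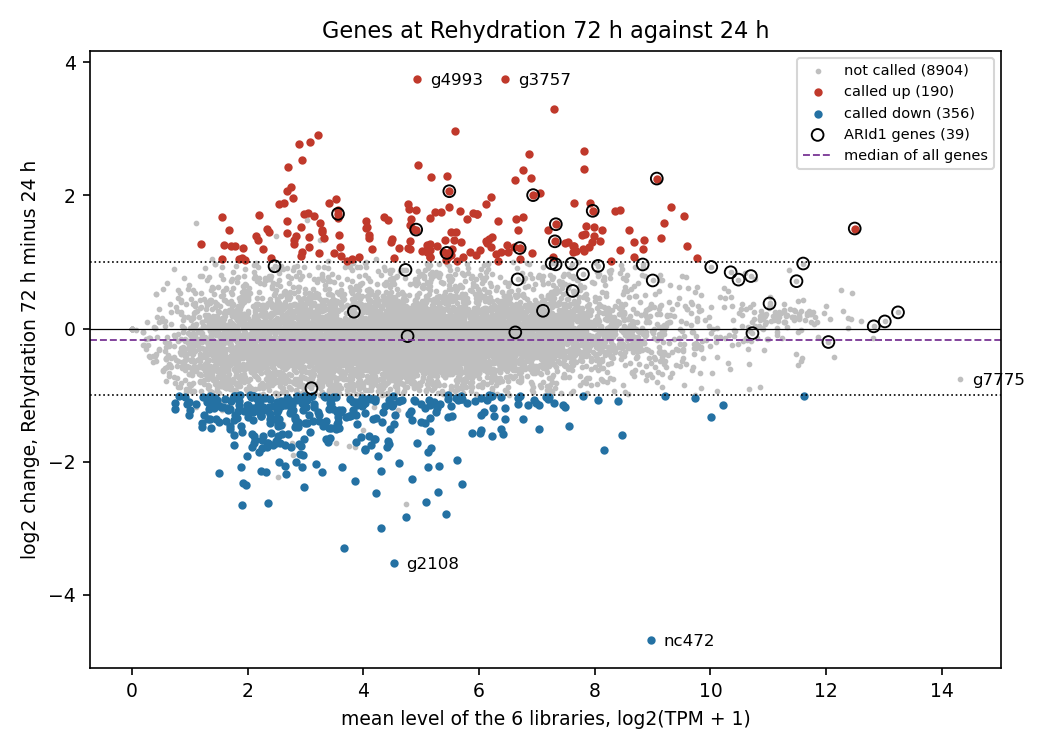
Each point is a gene, with the mean level of the 6 libraries as log2(TPM + 1) on the x axis and the log2 change, Rehydration 72 h minus 24 h, on the y axis. Dotted lines mark a 2-fold change, the dashed line the median of all genes (-0.18), and circles the 39 ARId1 genes; nc472 lies lowest, at -4.68, and g7775 is the point farthest to the right.

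The called genes differed in level. Of the 356 genes that fell, 217 (61.0%) had a mean under 10 TPM over all libraries, as did 66 of the 190 that rose (34.7%) and 3325 of all 9450 genes (35.2%). The median gene that rose stood at 58.7 TPM at 72 h and 20.8 TPM at 24 h. The median gene that fell stood at 3.91 TPM at 72 h and 11.5 TPM at 24 h. Changes above 4-fold were found in 24 of the genes that rose and 33 of those that fell. Together, the genes called up took 3.25% to 3.96% of the TPM of a library at 72 h and 1.28% to 1.30% at 24 h, and the genes called down took 0.881% to 0.927% at 72 h and 2.02% to 2.59% at 24 h. At the border of the fold threshold, 23 genes past the adjusted p had a log2 change from 1 to 1.1 and 51 one from 0.9 to 1, and on the side of the falls 86 lay between -1.1 and -1 and 101 between -1 and -0.9.

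nc472, a long noncoding RNA encoded upstream of g7775, had 33.6, 41.3 and 33.8 TPM in the 72 h libraries, against 1190.3, 825 and 869 TPM in the 24 h libraries. All 72 h libraries lay far below all 24 h libraries. The log2 change of -4.68 ± 0.12 (SE) corresponded to a 25.6-fold lower level at 72 h on the TPM + 1 scale (limma adjusted p = 2.0e-19), and it was -4.49 after scaling. Over rehydration, nc472 averaged 113 ± 10.7 TPM at 0 h, 259 ± 8.26 at 3 h, 1888 ± 223 at 12 h, 961 ± 199 at 24 h and 36.2 ± 4.38 at 72 h (SD, n = 3 each). The 12 h mean was the highest and the 72 h mean the lowest of all 28 groups of the series. Before preconditioning it stood at 651 ± 72.2 TPM. At 72 h it was lower than at the start by 4.13 on the log2 scale, past the limma threshold. At 24 h it was higher than at the start by 0.55 on the deposited values, below the 2-fold threshold. The median of all genes lay 0.73 above the start at 24 h, and 0.03 with scaling, so that the rise of nc472 was smaller than the general shift.

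g7775, the neighbour of nc472 and downstream of a strong promoter used to express transgenes in Pv11 cells, had 14366, 16650 and 14117 TPM at 72 h, against 27272, 25803 and 23239 TPM at 24 h. The groups did not overlap. Its log2 change was -0.76 ± 0.09 (SE; limma adjusted p = 9.2e-07), a 1.69-fold lower level that did not reach the 2-fold threshold, and -0.58 after scaling. Since it was so abundant, this was the largest loss of any gene in TPM, and g7775 alone held 8.96% of all TPM lost between 24 h and 72 h. Its 72 h mean of 15044 TPM was the lowest of the 28 groups of the series, and its highest, 56764 TPM, was that of PreCondTre 0 h.

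The transcripts of g7775 did not move alike. Of 14 tested, 3 fell past the threshold and 0 rose, where 2.65% of all transcripts tested fell and 1.79% rose. In the fit of the 6 libraries alone with the replicate number as a block, 0 transcripts of any gene were called (smallest limma adjusted p = 0.067). Transcript 19 of g7775 made up 0.269% of its gene at 72 h and 3.89% at 24 h, with 32.3, 60.4 and 28.6 TPM at 72 h, against 1422, 895 and 648 TPM at 24 h. Its log2 change of -4.58 (limma adjusted p = 1.2e-10) was close in size to that of nc472. Over all 30 time-course libraries, in which the group means of nc472 spanned 36.2 to 1888 TPM, the ratio of this transcript to nc472 stayed between 0.746 and 2.20. The estimates of RSEM divide reads that fit several transcripts, and whether these 2 sequences share reads was not tested. The remaining transcripts of g7775 summed to 15004 ± 1378 TPM at 72 h and 24450 ± 1677 TPM at 24 h (SD, n = 3 each). This transcript was chosen after its values were seen.

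The largest rises were those of g4993 and g3757. g4993 had 60.9, 56.3 and 50.6 TPM at 72 h, against 4.23, 2.69 and 2.86 TPM at 24 h. All 72 h libraries were higher, with a log2 change of 3.75 ± 0.24 (SE; limma adjusted p = 1.5e-11), and the 72 h mean was the highest of all 28 groups of the series. In the other groups of the time course the mean of g4993 lay between 0.663 TPM (Rehydration 0 h) and 3.26 TPM (Rehydration 24 h), so that this gene was at a high level at 72 h alone within the time course.

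g3757 had 184, 115 and 188 TPM at 72 h, against 13.5, 9.86 and 9.67 TPM at 24 h (log2 change 3.75 ± 0.16, SE; limma adjusted p = 2.1e-14). The groups did not overlap. Its course differed from that of g4993: it averaged 181 ± 8.34 TPM at PreCondTre 0 h, 203 ± 6.19 at PreCondTre 48 h, 218 ± 3.14 at Rehydration 3 h, 24.8 ± 4.53 at 12 h, 11.01 ± 2.15 at 24 h and 163 ± 41.1 at 72 h (SD, n = 3 each). At 72 h its range of 115 to 188 TPM overlapped that of the start, 172 to 189 TPM, on the deposited values. Its log2 change against the start was -0.19 there, beside a median of 0.54 over all genes, which scaling took to 0.03.

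After nc472, the largest fall was that of g2108, with 1.61, 3.50 and 3.13 TPM at 72 h, against 42.1, 33.6 and 48.9 TPM at 24 h. The groups did not overlap (log2 change -3.53 ± 0.27, SE; limma adjusted p = 3.8e-10). g2108 averaged 2.01 ± 1.18 TPM at Rehydration 3 h and 47.3 ± 14.4 TPM at 12 h (SD, n = 3 each), and 1.54 ± 0.13 TPM at the start. Its high values in the time course were thus those at 12 h and 24 h. Functions of g4993, g3757 and g2108 are not given in the sources used here.

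**Figure D2:**
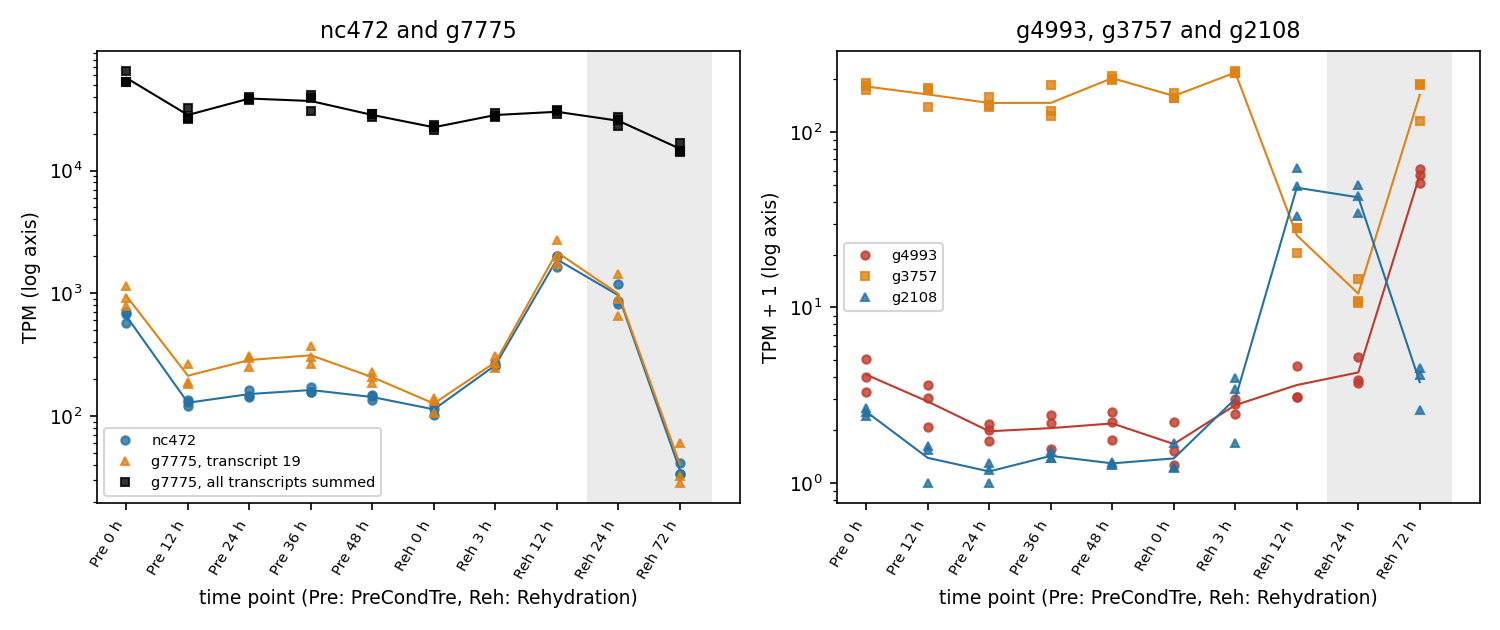
Levels in each library (points) and group means (lines) over the 10 time points, on log axes in TPM (left: nc472, transcript 19 of g7775 and the sum of g7775) and TPM + 1 (right: g4993, g3757 and g2108), with 24 h and 72 h of rehydration shaded. nc472 averaged 36.2 TPM at 72 h and 961 TPM at 24 h, transcript 19 ran beside it, and g4993 was high at 72 h alone.

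The genes of ARId1 were taken as the IDs spanned by the 4 Blocks, g16168 to g16208, without g16181, which was not analysed here, and other genes the study may count to the island are not included. Of these 40, 39 were tested, and 11 (28.2%) rose and 0 fell past the threshold, against 2.01% up and 3.77% down over all genes. At any fold, 29 reached an adjusted p under 0.05 in the direction of a rise and 2 in that of a fall in limma (30 and 2 at an unadjusted p under 0.05). The median change was 0.88 over ARId1, beside -0.18 over all genes, and in 31 genes (79.5%) all 72 h libraries lay above all 24 h libraries, as they did in 16.01% of all genes. With median ratio scaling 20 of the 39 rose and 0 fell. ARId1 genes are tandem paralogs, and RSEM divides reads that fit several of them, so values of single members are less certain than their sum.

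Block 1, from g16168 to g16197, held all 11 rises, which were 39.3% of its 28 genes tested. They were g16168 (PvLil6), g16171, g16173, g16174, g16175, g16177, g16178, g16185, g16192, g16193 and g16194, with log2 changes from 1.14 (g16171) to 2.25 (g16194). The median of Block 1 was 0.97, and 27 of the 28 genes had a positive change. The exception, g16182, had 17.8, 36.5 and 22.8 TPM at 72 h, against 29.3, 26.3 and 24.7 TPM at 24 h, which overlap (log2 change -0.11 ± 0.39, SE, and 0.06 with scaling). g16172, of the same Block, did not pass the filter and had 1.37 to 2.01 TPM at 72 h and 0.39 to 1.22 TPM at 24 h.

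PvLil6 (g16168), the LIL gene at the first border of Block 1, had 94.3, 53.2 and 67.5 TPM at 72 h, against 18.1, 13.5 and 16.5 TPM at 24 h. The groups did not overlap (log2 change 2.06 ± 0.18, SE; limma adjusted p = 2.6e-09), and its 72 h mean was the highest of the 28 groups of the series. The most abundant Block 1 gene, g16193, had 9059, 7804 and 8704 TPM at 72 h, against 2821, 3047 and 3140 TPM at 24 h. This log2 change of 1.503 ± 0.13 (SE; limma adjusted p = 4.5e-09) was the largest gain of any gene in TPM. g16194, next to it, had 1045, 751 and 875 TPM at 72 h, against 181, 197 and 175 TPM at 24 h, and showed the largest fold in ARId1 (log2 change 2.25 ± 0.15, SE; limma adjusted p = 6.3e-11). g16193 and g16194 were chosen after their values were seen.

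On the deposited values, both genes were below the start at 24 h and near it at 72 h (0.02 and 0.14 on the log2 scale). The median of all genes lay 0.54 above the start at 72 h and 0.73 at 24 h, and 0.03 at both times with scaling. Relative to that median, both genes were thus lower than the start at 72 h. g16193 averaged 8522 ± 647 TPM at 72 h, 3003 ± 164 TPM at 24 h and 8589 ± 2450 TPM at PreCondTre 0 h, and g16194 averaged 890 ± 148, 184 ± 11.1 and 813 ± 182 TPM at the same times (SD, n = 3 each). Most other Block 1 genes stood above the start at both times. g16169, g16187, g16188, g16189 and g16190 were below it at 24 h (log2 change from -0.05 to -0.82), and g16190 also at 72 h (-0.11). g16173, which had the largest change against the start in the Block, averaged 240 ± 39.5 TPM at 72 h, 79.5 ± 4.25 TPM at 24 h and 1.94 ± 0.74 TPM at the start. Of the 28 genes of Block 1, 25 (89.3%) had all 72 h libraries above all start libraries, against 64.2% of all genes. At 24 h, 21 (75%) had all libraries above those of the start, near the 74% of all genes, and 6 (21.4%) had them below, against 8.05% of all genes. With scaling, the median of Block 1 against the start was 1.36 at 72 h and 0.19 at 24 h. At 72 h 18 genes were then called up (64.3%) and 0 down, against 7.75% and 7.94% of all genes. At 24 h 10 were called up (35.7%) and 4 down (14.3%), against 7.15% and 7.66%.

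The 3 libraries at 72 h differed in much the same order across Block 1. Replicate 2 was the lowest in 27 of the 28 genes, and replicate 1 was the highest in 24. Without replicate 2, 18 ARId1 genes were called up in place of 11, and without replicate 1, 11 were called up and 1 down. Several members lie close to the 2-fold threshold, such as g16186 at 0.98, g16187 at 0.98 and g16191 at 0.98 on the log2 scale. With scaling these were called up, at 1.15, 1.16 and 1.15.

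No gene of the other Blocks passed both thresholds on the deposited values. In Block 2 (g16198 to g16200), 0 of 3 genes were called in limma (1 at an unadjusted p under 0.05) and the median was -0.06. PvLil11 (g16198), a LIL gene, had 17.2, 11.6 and 15.2 TPM at 72 h, against 13.0, 11.7 and 11.3 TPM at 24 h, and PvLil2 (g16200), another LIL gene, had 148, 53.1 and 97.4 TPM at 72 h, against 114, 86.5 and 87.7 TPM at 24 h. Both overlapped between the groups (log2 change 0.25 ± 0.23 and -0.06 ± 0.30, SE; limma adjusted p = 0.43 and 0.90), and the change of PvLil2 turned to 0.12 with scaling. g16199, between them, was the ARId1 gene with the lowest value, -0.90 ± 0.25 (SE; limma adjusted p = 0.0065), below the 2-fold threshold.

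In Block 3 (g16201 to g16204), 0 of 4 genes were called in limma on the deposited values (3 at an unadjusted p under 0.05), although all 4 had every 72 h library above every 24 h library, as 16.01% of all genes had. PvLea17 (g16201), a LEA gene, had 396, 308 and 345 TPM at 72 h, against 194, 178 and 171 TPM at 24 h (log2 change 0.94 ± 0.14, SE; limma adjusted p = 1.6e-05). It passed the 2-fold threshold with scaling (1.12) and without replicate 2 of the 72 h group (1.03). PvLea4 (g16204), the most abundant LEA gene of the Block borders, had 10418, 10288 and 10771 TPM at 72 h, against 9083, 8728 and 8791 TPM at 24 h (log2 change 0.24 ± 0.06, SE; limma adjusted p = 0.0016). The difference was larger than the spread of the libraries and small in size.

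In Block 4 (g16205 to g16208), 0 of 4 genes were called in limma (2 at an unadjusted p under 0.05) and the median was -0.02. PvLea5 (g16205) had 7675, 6830 and 7453 TPM at 72 h, against 7199, 7218 and 7025 TPM at 24 h, and PvLea11 (g16208) had 1746, 1517 and 1692 TPM at 72 h, against 1797, 1698 and 1701 TPM at 24 h. The groups overlapped in both LEA genes (log2 change 0.03 and -0.07; 95% limits of -0.32 to 0.39 and -0.26 to 0.12), and that of PvLea11 turned to 0.11 with scaling. Between them, g16207 had 1980 to 2265 TPM at 72 h and 1162 to 1276 TPM at 24 h, a log2 change of 0.79 below the threshold. With scaling, the medians of Blocks 2 and 4 turned from below 0 to above it, at 0.12 and 0.16, with 0 genes called.

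**Figure D3:**
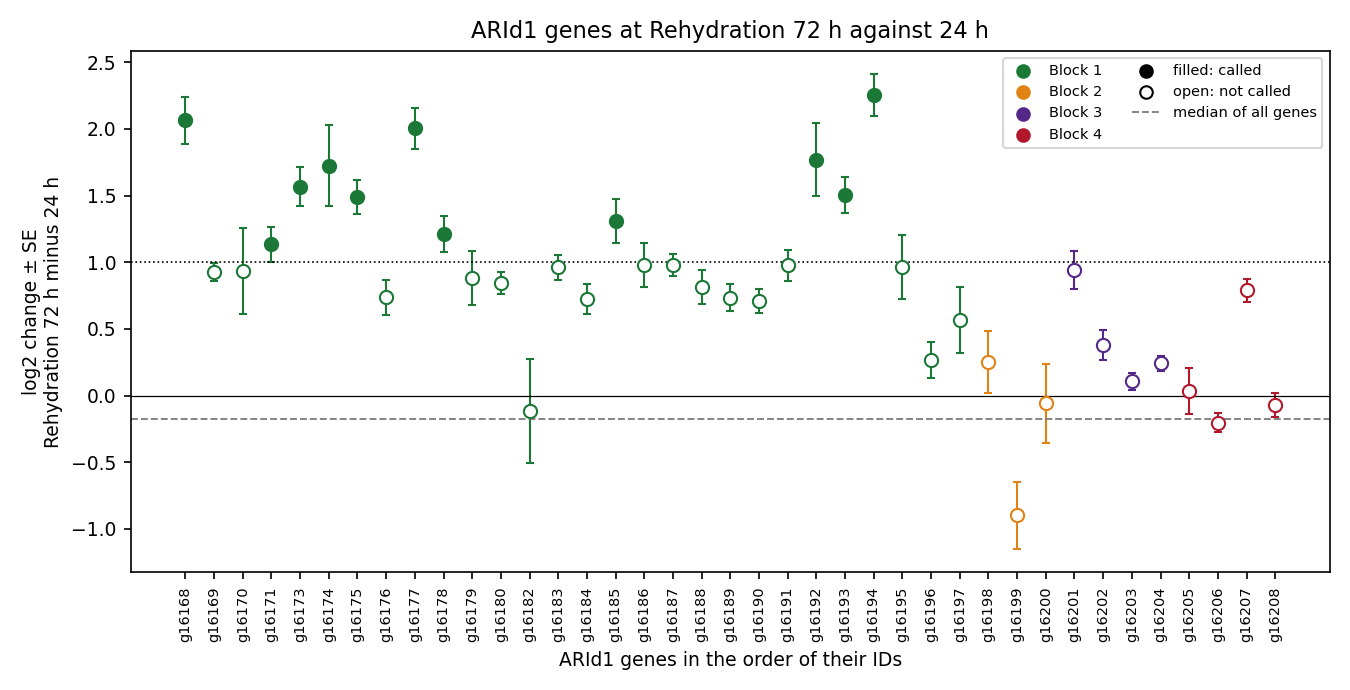
Log2 change ± SE, Rehydration 72 h minus 24 h, of the 39 ARId1 genes tested, in the order of their IDs and coloured by Block, with filled points for genes called. The 11 filled points all belong to Block 1, whose median was 0.97, while the dashed line shows the median of all genes at -0.18.

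Summed over its genes, ARId1 took 6.62%, 5.88% and 6.38% of the TPM of the 72 h libraries, against 4.63%, 4.56% and 4.52% of the 24 h libraries. Block 1 took 2.91%, 2.302% and 2.62% at 72 h, against 1.25%, 1.23% and 1.18% at 24 h. All 72 h libraries were higher in both sums. Block 3 took 2.18% ± 0.05 at 72 h and 1.88% ± 0.02 at 24 h, and Block 4 took 1.499% ± 0.08 at 72 h and 1.46% ± 0.02 at 24 h (SD, n = 3 each). Block 2 stayed at 0.012% at both times. ARId1 genes held 15.4% of all TPM gained between the groups, and Block 1 alone 12.0%. Over the whole time course the share of Block 1 was 1.90% at PreCondTre 0 h, 5.47% at 12 h, 3.52% at 48 h, 3.04% at Rehydration 0 h, 0.948% at 12 h, 1.22% at 24 h and 2.61% at 72 h.

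**Figure D4:**
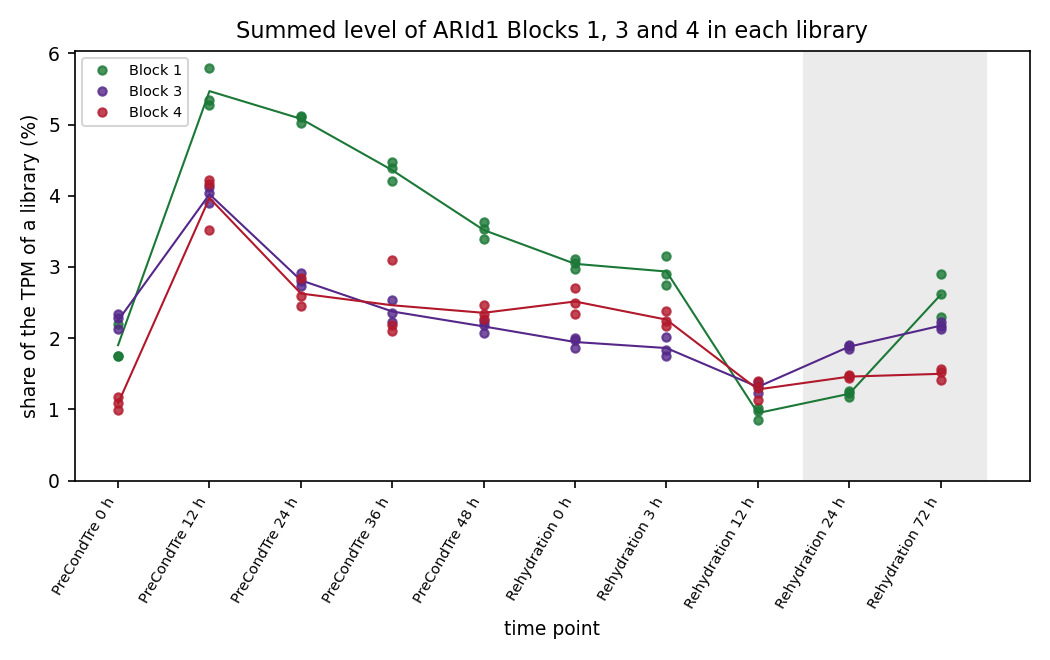
Share of the TPM of each library (points, %) and group mean (lines) taken by the genes of Blocks 1, 3 and 4 at the 10 time points, with 24 h and 72 h of rehydration shaded. Block 1 held 2.302% to 2.91% in the 72 h libraries and 1.18% to 1.25% in the 24 h libraries, while Block 4 overlapped between the groups.

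Outside the Blocks, the study also lists LEA genes elsewhere in the genome. PvLea12a (g17258) had 3.98, 2.9 and 1.89 TPM at 72 h, against 3.65, 5.16 and 2.59 TPM at 24 h, which overlap (log2 change -0.29 ± 0.25, SE; limma adjusted p = 0.39). PvLea12b (g17260) was below the filter and was not tested, with 3.61, 2.27 and 3.19 TPM at 72 h, against 1.1, 0.4 and 1.3 TPM at 24 h. PvLea9a and PvLea9b were not analysed here.

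The transcription factors that the study named did not change past the threshold. HSF (g3611), the heat shock factor, which binds heat shock elements, had 464, 411 and 471 TPM at 72 h, against 504, 491 and 465 TPM at 24 h. The groups overlapped (log2 change -0.12, 95% limits of -0.37 to 0.13; limma adjusted p = 0.49). NF-Y is a factor of 3 subunits that binds the CCAAT box. NF-YA (g7210) had 42.6, 47.4 and 49.1 TPM at 72 h, against 48.2, 48.4 and 51.4 TPM at 24 h, and NF-YC (g11889) had 16.01, 16.1 and 16.3 TPM at 72 h, against 15.7, 17.6 and 16.7 TPM at 24 h. Both overlapped (limma adjusted p = 0.51 and 0.81). NF-YB (g5893) had 29.4, 36.3 and 31.0 TPM at 72 h, against 41.1, 43.7 and 36.3 TPM at 24 h, with a log2 change of -0.32 (95% limits of -0.71 to 0.08; limma adjusted p = 0.21). Its limma adjusted p depended on the fit, at 0.044 in the fit of the 2 groups only, 0.010 with sample weights and 0.72 with scaling. The scaled log2 change was -0.14, and the change stayed below the 2-fold threshold in each of these. The small differences of HSF, NF-YA and NF-YC changed sign with scaling, to 0.06, 0.09 and 0.13.

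Noncoding genes were called about as often as other genes. Of 507 tested, 7 rose and 25 fell (6.31%), against 5.75% of the other 8943 genes, and their median change was -0.16, beside -0.18. After nc472 the next largest fall among them was -2.17 and the largest rise 2.91 on the log2 scale. Most were weakly expressed, with a median of 4.69 TPM over all libraries, against 20.1 TPM for other genes, and the median SE of their change was 0.35, against 0.15. With scaling 10 rose and 17 fell.

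At the level of single transcripts, 1008 of 22728 were called (4.44%), 406 up (1.79%) and 602 down (2.65%). In the fit of the 6 libraries alone with the replicate number as a block, 0 transcripts were called in limma, the smallest adjusted p was 0.067, and 5916 had an unadjusted p under 0.05. Of the genes with a called transcript, 800 in all, 363 were not called as a sum, and 109 genes were called as a sum with no single transcript called. In 15 of the 4947 genes with 2 or more transcripts tested, transcripts were called in both directions, and 0 of these genes were called as a sum. In ARId1, 26 of 155 Block 1 transcripts rose and 0 fell, and of the 337 transcripts of Blocks 2 to 4, 0 rose and 7 fell. Over all transcripts, 1.79% rose and 2.65% fell, so falls in Blocks 2 to 4 were no more frequent than among all transcripts.

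To place both times beside the cells before preconditioning, each was compared with PreCondTre 0 h. These comparisons share libraries with the main one, so their values are given side by side only. At 72 h, 2429 genes (25.7%) differed from the start past the threshold, 2111 up (22.3%) and 318 down (3.37%), and at 24 h 3158 genes (33.4%) did, 2949 up (31.2%) and 209 down (2.21%). The median of all genes lay above the start by 0.54 at 72 h and by 0.73 at 24 h on the log2 scale. With scaling these medians were 0.03 at both times, and 1482 genes were called at 72 h (732 up, 750 down) and 1400 at 24 h (676 up, 724 down).

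The 190 genes that rose had a median against the start of 1.24 at 72 h and -0.24 at 24 h, beside 0.54 and 0.73 over all genes, and 134 of them (70.5%) had every 72 h library above every start library and 18 (9.47%) below, against 64.2% and 10.9% of all genes. At 24 h, 59 (31.1%) lay above and 86 (45.3%) below, against 74% and 8.05% of all genes. With scaling, their medians were 0.68 at 72 h and -0.84 at 24 h, beside 0.03 at both times over all genes. In 122 of them (64.2%) the 72 h mean was the highest of the 10 time points, as it was in 1586 of all genes (16.8%). The rule of the comparison favours this, since a gene called up cannot be highest at 24 h.

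The 356 genes that fell had a median against the start of -0.31 at 72 h and 0.98 at 24 h. With scaling these medians were -0.72 and 0.32. Every 72 h library lay above every start library in 70 of them (19.7%) and below in 157 (44.1%), against 64.2% and 10.9% of all genes. At 24 h, 256 (71.9%) lay above and 36 (10.1%) below, near the 74% and 8.05% of all genes. In 186 of them (52.2%) the highest mean of the time course was that of Rehydration 12 h and in 53 (14.9%) that of 24 h, beside 29.1% and 19.02% of all genes. The lowest mean was that of 72 h in 155 of them (43.5%), beside 6.31% of all genes, which the rule again favours.

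**Figure D5:**
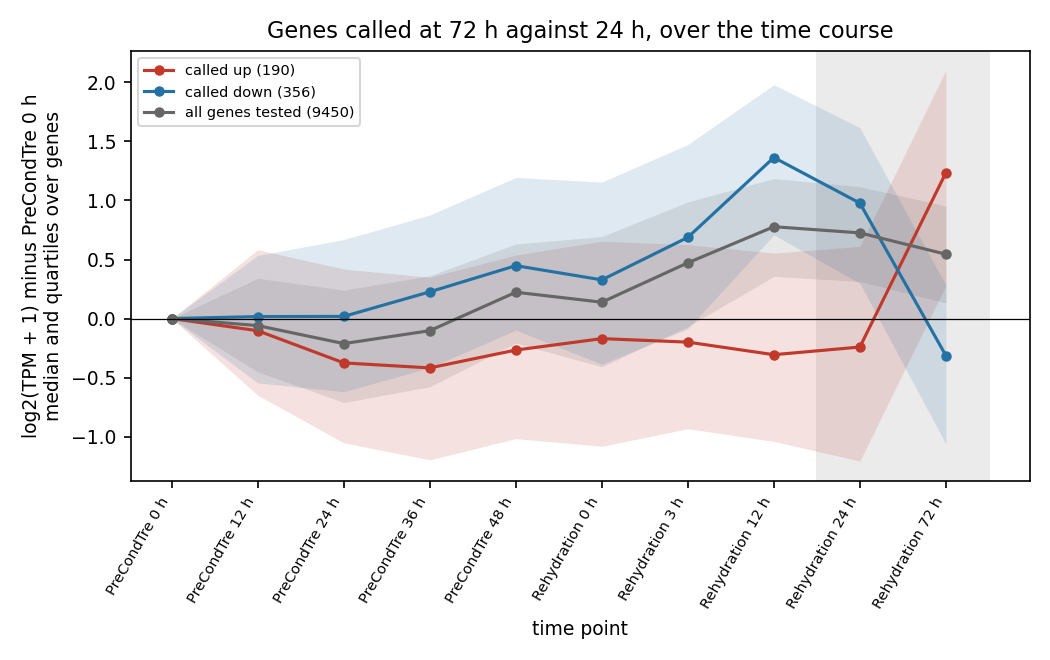
Median (points) and quartiles (shading) over genes of log2(TPM + 1) minus the value at PreCondTre 0 h, at the 10 time points, for the 190 genes called up, the 356 called down and all 9450 genes tested. At 72 h the medians were 1.24, -0.31 and 0.54, and at 24 h -0.24, 0.98 and 0.73.

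The same genes were followed in comparisons between groups that hold none of the 6 libraries. Those within the time course came from the same fit, which shares 1 estimate of the spread per gene with the main comparison. Genes called in the main comparison tend to have a small spread, which favours calls in either direction here, so these counts are not independent of it. At Rehydration 12 h against 3 h, 39 of the 190 genes that rose at 72 h were called down (20.5%), against 2.42% of all genes, and these were 17.0% of the 229 genes called down there. Of the 356 genes that fell at 72 h, 105 were called up (29.5%), against 10.9% of all genes, and these were 10.2% of the 1030 genes called up there. Medians were -0.11 for the genes that rose, 0.63 for those that fell and 0.29 for all genes. With scaling, 53 of the genes that rose were called down (27.9%), against 4.32% of all genes, and 73 of those that fell were called up (20.5%), against 4.92%, with medians of -0.38, 0.34 and -0.01. At the first step of preconditioning, PreCondTre 12 h against 0 h, 35 of the genes that rose were called up (18.4%) and 25 down (13.2%), and 44 of those that fell were called up (12.4%) and 40 down (11.2%), against 6.24% up and 6.31% down over all genes. At drying, Rehydration 0 h against PreCondTre 48 h, 10 and 8 of the genes that rose and 15 and 25 of those that fell were called up and down, where 8.23% of all genes were called, 3.87% up and 4.36% down. With scaling, these numbers at drying were 14 and 3 and 20 and 20, against 4.97% up and 2.86% down.

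Part of these genes were also called in undried cells exposed to salt or sugars. At NaCl 24 h against Control 24 h, 60 of the 190 were called up (31.6%) and 7 down (3.68%), against 7.75% and 11.2% of all genes, and the 60 were 8.20% of the 732 genes called up there. At Trehalose 24 h, 45 were called up (23.7%) and 28 down (14.7%), against 6.99% and 10.3% of all genes. At Mannitol 24 h, 42 were called up (22.1%) and 14 down (7.37%), against 8.46% and 4.76%. With scaling, 70, 50 and 43 of the 190 were called up in NaCl, Trehalose and Mannitol (36.8%, 26.3% and 22.6%), against 11.1%, 9.68% and 9.27% of all genes. The 3 comparisons share their control libraries. Of the 356 genes that fell, 30, 56 and 43 were called up and 37, 43 and 18 down in NaCl, Trehalose and Mannitol, which was 8.43%, 15.7% and 12.1% of them up and 10.4%, 12.1% and 5.06% down.

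One hour after heat shock, Heat 1 h against Control 1 h, 20 of the 356 genes that fell at 72 h were called up (5.62%), against 1.15% of all genes, and these 20 were 18.3% of the 109 genes raised by heat. Of the genes that rose at 72 h, 3 were called up and 5 down (2.63%, against 0.127% of all genes), and these 5 were 41.7% of the 12 genes lowered by heat. With scaling, 17 of the genes that fell were called up (4.78%, against 0.984%) and 10 of those that rose were called down (5.26%, against 0.233%). One hour after paraquat (ROS 1 h), 0 genes were called in limma. There, 2 genes reached an adjusted p under 0.05 below the 2-fold threshold, and 1456 (15.4%) an unadjusted p under 0.05 in either direction. Among them were 14 of those that rose at 72 h (7.37%) and 73 of those that fell (20.5%). These counts are on the deposited values, where the median change was 0.17 over all genes, 0.06 for those that rose and 0.185 for those that fell. With scaling these medians were -0.03, -0.15 and 0.01.

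ARId1 genes were called in several of these comparisons. The study describes ARIds as rich in genes induced when anhydrobiosis begins. It set the Blocks, which give the list used here, partly by responses to mannitol, NaCl or trehalose preconditioning. High shares of rises under these treatments thus partly restate how the list was made, and all genes are not a neutral reference for them. At PreCondTre 12 h against 0 h, 35 of the 39 ARId1 genes rose (89.7%), against 6.24% of all genes. At Rehydration 12 h against 3 h, 23 fell (59.0%) and 1 rose, against 2.42% down and 10.9% up over all genes, and 17 of these falls and the 1 rise were in Block 1. In undried cells, 34 rose at NaCl 24 h (87.2%), 33 at Trehalose 24 h (84.6%) and 23 at Mannitol 24 h (59.0%), against 7.75%, 6.99% and 8.46% of all genes, and 1 rose at Heat 1 h (2.56%, against 1.15%). Against the start, 24 ARId1 genes were higher past the threshold at 72 h (61.5%), against 22.3% of all genes, and at 24 h 17 were higher (43.6%) and 2 lower (5.13%), against 31.2% and 2.21%. Medians were 1.91 at 72 h and 0.90 at 24 h, beside 0.54 and 0.73 over all genes. With scaling, 22 were higher at 72 h (56.4%), against 7.75% of all genes, and at 24 h 13 were higher (33.3%) and 6 lower (15.4%), against 7.15% and 7.66%. The medians were then 1.33 at 72 h and 0.14 at 24 h, beside 0.03 at both times over all genes.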

How the data were processed

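RNA of Pv11 cells was sequenced by the authors and reads were mapped to the transcripts of gene set Pv5.2.4 with Bowtie2 and quantified with RSEM through Trinity. The authors deposited TPM per transcript, with no further scaling between libraries. Since the depth of the libraries is unknown, intervals from counting cannot be given.

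Transcripts were summed per gene by the ID without its transcript suffix. Genes, and single transcripts, with a mean above 1 TPM over all 84 libraries were tested as log2(TPM + 1) in limma 3.58.1 (R 4.3.3, package data.table in version 1.17.8), with 1 coefficient for each of the 10 time-course groups, a variance trend and empirical Bayes moderation. The stress libraries were fitted separately. Features were called at a change above 2-fold with p, adjusted by Benjamini and Hochberg over all of them, under 0.05. Fold changes on the TPM + 1 scale understate those of low genes. An exact permutation test of 3 against 3 libraries cannot go below p = 0.10 and was not used. Tables and plots used Python 3.11.15, pandas 2.3.3, numpy 2.4.6 and matplotlib 3.10.9.

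The members, lists and tests were chosen with earlier results of these data known. Named genes are those the study names by ID, and the 2 largest rises and 2 largest falls among called genes whose groups do not overlap; others are marked in the text. Lists of genes by product could not be used, since no table given here pairs the IDs with products. Replicate numbers were checked: deviations of same-numbered 72 h and 24 h libraries from their group means correlated at r = 0.185, 0.180 and 0.128, all above 0.1, so the fit with the replicate number as a block is given beside a result whose call it changes. Over all 135 same-numbered pairs of time-course libraries r ran from -0.832 to 0.572, with 24 above 0.1, and the fit of the text has no block. The study names 3 biological replicates per sample for the stress libraries it sequenced. For the time course, taken from earlier data, the labels give replicate numbers and do not say what the numbers share. Alternatives were pseudocount 0.1, other minimums of the mean TPM, no variance trend, a fit of the 2 groups only, median ratio scaling over the 9254 genes above 0 in every library, sample weights, stricter thresholds, a replicate block and each replicate left out in turn.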

Additional observations from a re-analysis of the deposited data

How the results depend on the processing

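Directions of the named genes past the threshold (nc472, g2108, g4993, g3757 and g16168) held in all alternatives run, and depth is unknown. With median ratio scaling, the genes down numbered 186, ARId1 genes called 20, and genes called against PreCondTre 0 h 1482 at 72 h and 1400 at 24 h, the shift of all genes being removed by construction. At an adjusted p under 0.001 and a change above 4-fold, 22 genes were up and 32 down, with 3 ARId1 genes, 5 noncoding genes, 111 transcripts, and 371 (72 h) and 353 (24 h) genes called against PreCondTre 0 h. Sample weights gave 55 noncoding genes (28 up, 27 down) in place of 32, and the cause was not tested. A replicate block over the time course left 190 genes up and 354 down. In the fit of the 2 groups only, an alternative chosen after seeing the data, the replicate block gave 196 up, 370 down and 0 transcripts in place of 1008. It changed no other call by over 1.5 times. With 1 replicate left out in turn, genes up ranged over 170 to 230, genes down 294 to 407, ARId1 genes called 11 to 18 (18 without replicate 2 of the 72 h group), noncoding genes 28 to 38, transcripts 794 to 1035, and genes called against PreCondTre 0 h 2098 to 2698 at 72 h and 2742 to 3507 at 24 h. With a pseudocount of 0.1, 217 genes were up and 501 down.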
